A study of Homo sapiens with 20 samples.

Results

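ARP1 is a human multiple myeloma line, and its untreated transcriptome was set against those of 4 other myeloma models. Genes were singled out where both ARP1 libraries lay outside the range of all libraries of the other models. Of the 20 RNA-seq libraries of the study, 10 were used for this comparison: 2 of ARP1 and 8 of the other models, 2 each of ANBL6, ANBL6BR, RPMI8226 and U266. All 10 were labelled as treated with DMSO, the vehicle. ARP1, ANBL6, RPMI8226 and U266 were labelled wild type, and ANBL6BR is a form of ANBL6 labelled as bortezomib resistant, so 2 of the other 4 models share an origin. The remaining 10 libraries came from the same models treated with indirubin-3'-monoxime (I3MO), a kinase inhibitor that also binds the aryl hydrocarbon receptor, at 5 µM in ANBL6 and ANBL6BR and at 10 µM in ARP1, RPMI8226 and U266. They served only as further libraries of the same models. All samples were labelled as bone marrow in origin and total RNA. ARP1 is a single line, the length of treatment was not given, and the labels do not say whether the 2 libraries of a model came from separate cultures, so p-values measure only the spread between these libraries, which may be technical.

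Myeloma arises from plasma cells, which end the B lineage and secrete antibody. Its lines differ in the immunoglobulin rearrangement that started the tumour, in which D-type cyclin they use, and in later losses such as that of negative regulators of NF-kB. Myeloma cells depend on signals from the marrow, among them interleukin 6, adhesion through integrins and ICAM1, and interferon and NF-kB signalling.

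Levels are given in FPKM, that is, fragments scaled to gene length and to library size. Sequencing depth, recovered from the steps between FPKM values, was 16.78 and 18.02 M (1e6) fragments in the ARP1 libraries and 13.74 to 15.76 M in the other 8. A listed value of 0 allows up to 3 fragments, which for a gene of 1 kb is 0.167 to 0.218 FPKM in these 10 libraries (counting error only). The ARP1 libraries correlated at r = 0.982 with each other across tested genes. Their correlation was highest with RPMI8226 (0.815 to 0.822), then U266 (0.752 to 0.756), and overlapped for ANBL6 (0.720 to 0.737) and ANBL6BR (0.718 to 0.753). The ANBL6BR libraries had the lowest correlation of a replicate pair here (0.969) and differed at stress genes: HMOX1, heme oxygenase, was at 99 FPKM in one and 825 in the other.

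Both ARP1 libraries carried the plasma cell markers and almost none of the markers of cells outside the B lineage. Of 12 plasma cell markers 11 were tested, and SDC1 (CD138) was at 149 and 152 FPKM, TNFRSF17 (BCMA) at 46.2 and 60, IRF4 at 114 and 89.2, and MZB1 at 50.2 and 65.4. The 12 summed to 555 to 640 FPKM in ARP1 and to 244 to 648 in the other 8 libraries. XBP1, which defines plasma cells, was listed at 0 in all libraries, so a 0 in these tables is given below only as listed at 0. The 12 T and NK cell markers summed to 0.774 to 1 FPKM in ARP1, the 12 myeloid markers to 0.146 to 0.326 (1.01 to 58.2 in the other 8), the 12 erythroid and megakaryocyte markers to 0.404 to 0.798, the 12 stromal and endothelial markers to 0.265 to 0.331 and the 12 epithelial markers to 0.766 to 0.953 (2.31 to 44.4 in the other 8). The 10 mature B cell markers summed to 4.87 to 6.09 FPKM in ARP1 and to 0.81 to 6.97 in the other 8. Of the 6 tested, 2 were called higher and 3 lower. Among these markers MS4A1 and CD22 were listed at 0 in both ARP1 libraries, while PAX5, given below, was higher.

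ARP1 differed from the average of the other models at most tested genes. Genes with at least 1 FPKM in at least 2 of the 10 libraries were tested, 13929 of the 60483 listed. The test was limma on log2(FPKM + 1), ARP1 minus the mean of the 4 models, with Benjamini-Hochberg adjusted p under 0.05 as the call. By this rule 3626 genes (26.0%) were higher in ARP1 and 5708 (41.0%) lower, 9334 (67.0%) in all, and the median difference over all tested genes was -0.18 on the log2 scale. With each model counted as 1 value, so that the spread is that between models, limma called 0 genes, 604 (4.34%) had an unadjusted p under 0.05, and the smallest adjusted p was 0.158. The calls therefore say that these ARP1 libraries differ from the mean of these 4 models, and not that ARP1 differs from myeloma lines in general.

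A narrower rule asked that both ARP1 libraries lie outside the range of the other 8. It was met above the range by 1672 tested genes (12.0%) and below it by 1499 (10.8%). Nearly all were also called in the same direction, 1669 above (12.0%) and 1485 below (10.7%), and genes meeting both rules are called distinct from here on. The balance was 1908 above and 1251 below with median-ratio scaling, and it turned without the model RPMI8226, to 2008 above and 2591 below. Such genes are not peculiar to ARP1: under the same rule each other model had between 23.8% and 31.3% of tested genes outside the range of the remaining libraries, against 22.8% for ARP1. Among the distinct higher genes, 324 passed the filter on low values through the ARP1 libraries alone and so had to lie above the others. Against single models, which share the ARP1 libraries, limma called 8842 genes (63.5%) for ANBL6, 8837 (63.4%) for ANBL6BR, 7553 (54.2%) for RPMI8226 and 8529 (61.2%) for U266. The balance for RPMI8226 was 4459 higher (32.0%) and 3094 lower (22.2%), while for the other 3 models lower calls were the more numerous. They were 3844 higher (27.6%) and 4998 lower (35.9%) for ANBL6, 3669 higher (26.3%) and 5168 lower (37.1%) for ANBL6BR, and 3460 higher (24.8%) and 5069 lower (36.4%) for U266. These balances are on FPKM without median-ratio scaling. The scale factors of that method were 0.8186 to 0.8266 for RPMI8226, 0.9216 and 0.9669 for ARP1 and 1.081 to 1.171 for the other 3 models. Whether the balances follow the scale was not tested. Genes called against every one of the 4 models numbered 1237 higher (8.88%) and 689 lower (4.95%).

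The I3MO libraries, which the range rule did not use, gave a second look at the same line. Of the 1669 distinct higher genes 1090 (65.3%) also had both ARP1 I3MO libraries above the other 8 I3MO libraries, and 2 had them below. Of the 1485 distinct lower genes 868 (58.5%) lay below in I3MO and 0 above. Over all tested genes the corresponding shares were 13.6% above and 10.4% below. The sign of the difference was kept by 96.8% of the higher and 94.9% of the lower genes. These libraries share the line with the DMSO libraries, and the doses differ between models.

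Among protein-coding genes and long intergenic non-coding RNAs, the 15 distinct higher genes with the widest gap to the other libraries were led by LINC01916, LAMP5 and SIX2. LINC01916, a non-coding RNA on hg38 chr18:65424013-65447512, was at 51.2 and 65.1 FPKM in ARP1 and listed at 0 in all other 8 libraries. LAMP5, a member of the lysosomal membrane protein family known from dendritic cells and neurons (chr20:9514358-9530524), was at 31.3 and 26.5, and SIX2, a homeobox factor of kidney progenitors (chr2:45005161-45009430), at 15.2 and 14.4, with both listed at 0 elsewhere. For these 3 genes no other library showed a value, so their log2(FPKM + 1) differences of 5.88, 4.90 and 3.98 depend on the 1 that was added and are no bound.

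AMPD1, the AMP deaminase of muscle, was at 15.7 and 17.8 FPKM in ARP1 against 0 to 0.2 elsewhere. SMCO4, a small membrane protein, was at 68.1 and 62 FPKM and at 0.123 to 3.99 (median 2.08) elsewhere, a log2 difference of 4.63 with SE 0.10 and limma adjusted p of 1.37e-07. TMSB15A, an actin-binding thymosin, was at 22.2 and 18.5 against at most 0.607. Both AMPD1 and TMSB15A stayed under 1 FPKM in every other library, and SMCO4 had its next highest values in U266 and ANBL6BR. CYRIA, a regulator of Rac1, was at 14.5 and 17.6 against at most 0.328, and WLS, the carrier that brings WNT ligands to the cell surface, at 17.2 and 14.2 against at most 0.467.

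Several of the 15 encode surface or secreted proteins. GJA1, the gap junction protein connexin 43, was at 18.9 and 24.4 FPKM in ARP1, at 1.03 and 1.15 in RPMI8226 and at no more than 0.0427 in the other 6 libraries. MUC13, a transmembrane mucin, was at 11.2 and 9.74 against at most 0.205, and MDK, the heparin-binding growth factor midkine, at 12.4 and 15 against 0.0793 to 0.514. The metalloprotease gene ADAMTS15 was at 9.25 and 8.11 against at most 0.0128. NAPSA, an aspartic protease known from lung, was at 26.7 and 30 against 0.0241 to 1.86, with its next highest values in ANBL6. HIC1, a transcriptional repressor, was at 10.1 and 10.8 against at most 0.358, and LINC03057 of the HOXB locus at 8.19 and 8.91 against at most 0.0665. All 15 were called against each of the 4 models, with limma adjusted p between 2.99e-08 and 1.43e-06 against their mean. The choice of genes used these same libraries and calls, so this adds no support. In I3MO all 15 were also above the other models. The filter was passed through ARP1 alone by 12 of the 15, which therefore had to lie above the others to be tested. HIC1 stood just inside the limit of 15 with a log2 gap of 3.03, and PITX1 just outside with 2.92.

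The 15 distinct lower genes with the widest gap were led by LAPTM5 and ICAM1. LAPTM5, a lysosomal membrane protein of blood cells that controls surface receptor levels (chr1:30732469-30757820), was at 0.0144 and 0.0269 FPKM in ARP1. It was at 384 and 343 in ANBL6, 112 and 58.4 in ANBL6BR, 180 and 202 in RPMI8226 and 27.2 and 26.6 in U266, so the lowest other library lay far above both ARP1 libraries (log2 difference -6.78, SE 0.21, limma adjusted p = 5.23e-07). ICAM1, the adhesion molecule bound by leukocyte integrins (chr19:10270835-10286615), was at 1.23 and 0.941 FPKM in ARP1 and at 41.7 to 85.8 (median 47.7) elsewhere. Its log2 difference was -4.69 (SE 0.08, adjusted p = 7.97e-08), and the ARP1 I3MO libraries were as low, at 0.8 and 0.714. In bulk RNA a lower level in all cells and fewer cells with the RNA cannot be told apart.

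Lipid and amino acid enzymes were among the 15. FAAH2, a fatty acid amide hydrolase, was at 0.0621 and 0.0386 FPKM in ARP1 against 6.71 to 11.5. FADS2, a desaturase of polyunsaturated fatty acids, was at 0.413 and 0.438 against 6.08 to 39 (median 7.74). ASS1, which makes argininosuccinate on the way to arginine, was at 3.69 and 3.42 against 16.1 to 106 (median 50.7), and in the ARP1 I3MO libraries at 19.7 and 20.8, still below the other I3MO libraries. RIMS3, known from synaptic active zones, was at 0.641 and 0.674 against 7.08 to 31.2, and the focal adhesion genes LPXN and TNS3 at 1.23 to 1.38 against 8.39 to 63 and at 0.699 to 0.832 against 6.15 to 18.3. TXNIP, the inhibitor of thioredoxin and of glucose uptake, was at 3.41 and 2.87 against 16.4 to 86.9 (median 33.5).

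The remaining ones included genes of stress and iron storage. FTL, the ferritin light chain, was at 322 and 249 FPKM in ARP1 against 1198 to 5882 (median 2465). GADD45A, a growth arrest gene, was at 2.28 and 1.55 against 11.5 to 85.5, where the highest was an ANBL6BR library. RNF11, a RING finger protein, was at 1.98 and 2.01 against 10 to 17.4, TESC, a calcium-binding protein, at 1.57 and 1.45 against 7.61 to 35.3, and BNIP3, a mitophagy receptor, at 0 and 0.0475 against 2.35 to 8.59. NEAT1, the RNA scaffold of paraspeckles, was at 1.99 and 2.72 against 10.7 to 44.6, and it was the one of the 15 that did not lie below the others in I3MO, where its log2 difference was 0.07. All 15 were called against each of the 4 models, with limma adjusted p from 7.97e-08 to 0.00193 against their mean. They were chosen among called genes by their gap in these same libraries, so these calls follow from the choice and add no support. NEAT1 stood just inside the limit of 15 with a log2 gap of 1.66, and IL6R, the receptor of interleukin 6, just outside with 1.63.

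**Figure D1:**
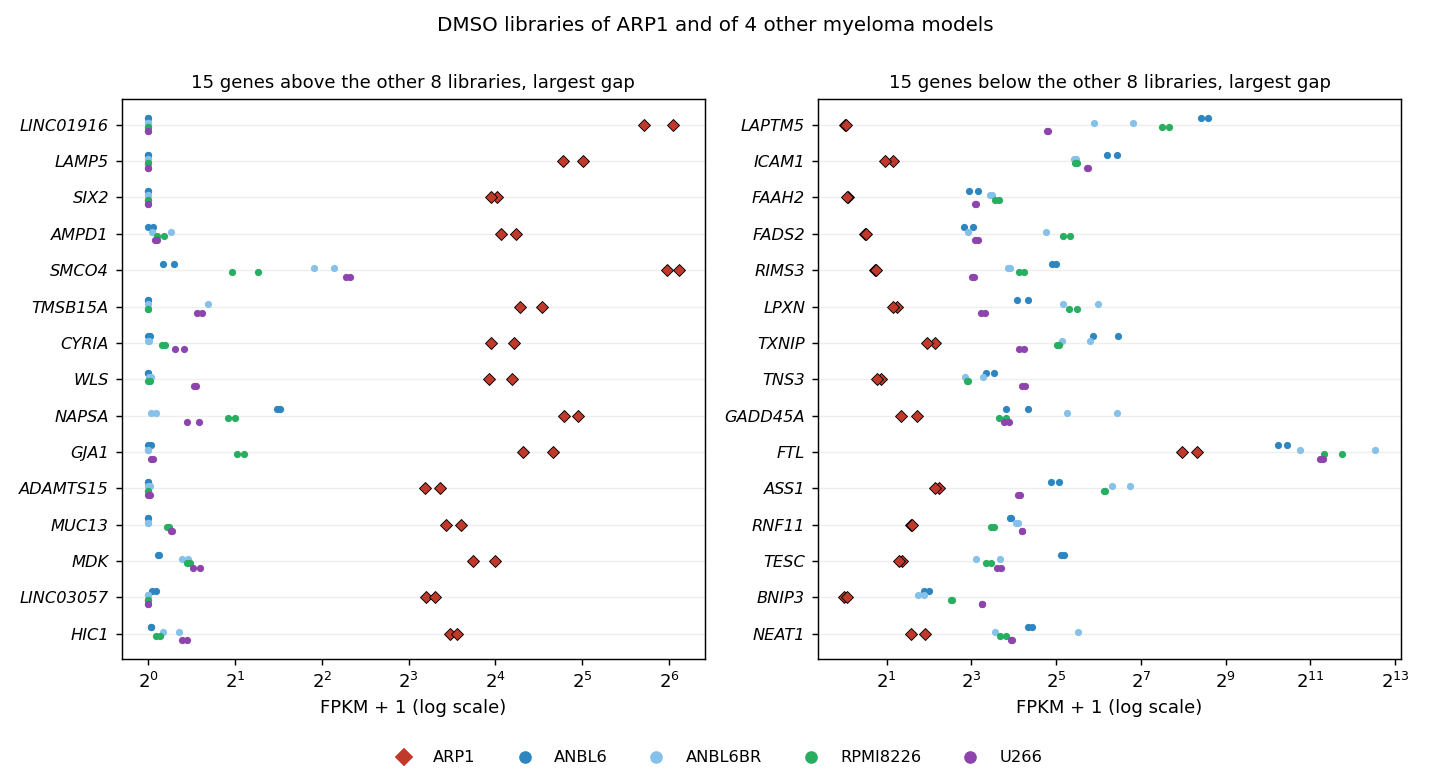
FPKM + 1 on a log axis for the 15 genes above (left) and the 15 below (right) the other libraries with the widest gap, DMSO libraries only; diamonds are the 2 ARP1 libraries and dots the 2 libraries of each other model. The diamonds stand apart from all dots in each row, as the choice of these genes requires, and for LINC01916, LAMP5 and SIX2 the dots of all 8 other libraries lie at FPKM 0.

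Genes that were on in 1 arm and off in the other were counted by level: under 0.1 FPKM on one side and at least 1 FPKM on the other. In the off direction 15 genes were under 0.1 in both ARP1 libraries and at least 1 in all 8 others, and 10 of them stayed under 0.1 in both ARP1 I3MO libraries. Besides LAPTM5, FAAH2 and BNIP3 they included, named after their values were seen, GPX1 (0.0639 and 0.0893 FPKM against 22.2 to 58.9), which encodes glutathione peroxidase 1 but is annotated as a polymorphic pseudogene, and SPINT2, a serine protease inhibitor (0.01 and 0.0327 against 1.43 to 23.2). ICAM3, a relative of ICAM1, and the electron transfer gene ETFB were listed at 0 in both ARP1 libraries, with the lowest other values at 1.45 and 1.52. The neighbours TNFAIP2 and EXOC3L4 on chromosome 14 were listed at 0 in all 4 ARP1 libraries, DMSO and I3MO, and ranged from 1.1 to 19.6 and from 1 to 6.54 in the other 8. In the on direction there were 66 genes, 43 of them protein-coding, and 54 were also at least 1 FPKM in both ARP1 I3MO libraries. By this rule all 66 passed the filter through the ARP1 libraries alone and so had to lie above the others. The 15 off genes passed it through the other models, so the counts on and off are not alike. Both are counts among 13929 tested genes. Examples of the on genes are the developmental factors PPARG (1.45 and 1.64 FPKM) and NKX2-5 (3.72 and 3.23). Others are the hedgehog receptor component SMO (3.73 and 3.62) and the prostaglandin receptor PTGER2 (3.39 and 3.14).

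Groups of genes were followed through 31 lists, of which 30 are described, each read against 26.0% higher and 41.0% lower calls, and 12.0% distinct higher and 10.7% distinct lower, over all tested genes. Among the 30 lists, the shares of distinct lower members were largest for B cell genes, NF-kB and NRF2 target genes, interferon-stimulated genes and surface antigens. Among the lists in which no member passed the filter through ARP1 alone, the shares of distinct higher members were largest for ribosomal proteins, mitosis genes, translocation drivers and MAPK feedback genes. The translocation list had 20.7% distinct higher but also 24.1% distinct lower, so it went both ways. Of the 3 distinct higher immunoglobulin genes 1 passed through ARP1 alone. With the scale set by the median ratio between libraries, the median of all tested genes moved from -0.18 to -0.08, and 4 of the 31 list medians changed sign: those of endoplasmic reticulum folding and replication genes, given below, that of drug handling genes (-0.10 to 0.01) and that of respiratory chain genes (-0.04 to 0.10).

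**Figure D2:**
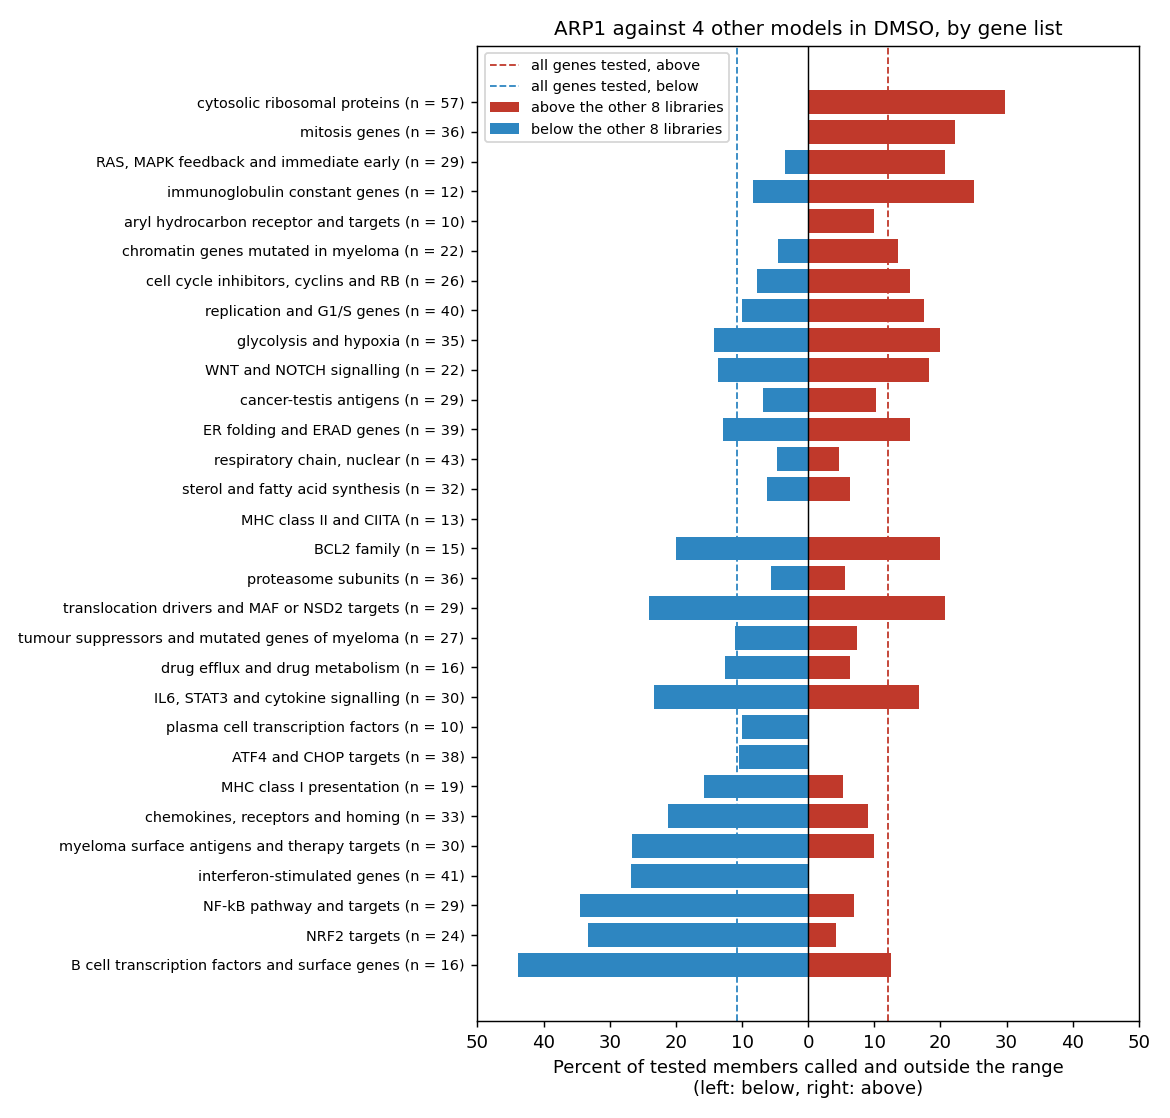
Percent of tested members of 30 gene lists that were distinct in ARP1, above the other 8 DMSO libraries to the right (red) and below to the left (blue); n is the number of tested members and the dashed lines are the shares over all tested genes, 12.0% and 10.7%. B cell genes reach furthest to the left with 43.8%, and ribosomal proteins furthest to the right with 29.8%.

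The next genes are given one by one, with no count of a list to read them against. CDKN1A, the cell cycle inhibitor p21, was at 2.12 and 2.02 FPKM in ARP1 against 5.6 to 53.3 (median 15.7), a log2 difference of -2.63 (adjusted p = 8.93e-05), and it was at 8.07 and 9.23 in the ARP1 I3MO libraries, which were not below the other models. BTG2, an antiproliferative gene, was at 10.8 and 8.33 against 23.7 to 81.3, and the death receptor gene FAS at 0.0596 and 0.0805 against 0.411 to 5.8. The repair genes DDB2 and XPC were at 1.79 to 1.95 and 1.54 to 1.85 against 2.66 to 4.72 and 2.46 to 5.44. POLH, a polymerase that copies damaged DNA, went the other way with 10.3 and 7.83 against 4.64 to 7.06. MDM2, a ubiquitin ligase, was not called (log2 difference -0.27, adjusted p = 0.0528), and BAX was called higher (0.38, adjusted p = 0.0461).

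Interferon-stimulated genes were lower almost throughout: of 41 tested, 34 were called lower and 3 higher, 11 were distinct lower and 0 distinct higher, with a median log2 difference of -0.89. STAT2, a factor that carries the interferon signal to the nucleus, was at 2.21 and 1.72 FPKM in ARP1 against 3.21 to 11.9. The RNA sensor IFIH1 was at 0.558 and 0.856 against 3.92 to 12.1 (log2 difference -2.24, SE 0.10, adjusted p = 3.46e-06). IFI35 was at 1.59 and 1.88 against 4.12 to 39.2, and UBE2L6, which conjugates ISG15, at 11 and 10.5 against 21 to 67.5. The factor IRF7 was at 0.12 and 0.134 against 0.213 to 5.37. The highest library of each was one of U266, and the library nearest to ARP1 one of ANBL6BR or RPMI8226.

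Not every member followed. IFI6 and MX1 were called lower but lay inside the range, with ANBL6BR as low as ARP1: IFI6 was at 1.56 and 1.54 FPKM in ARP1 and 1.64 and 1.23 in ANBL6BR, against 261 and 255 in U266. The immunoproteasome genes PSMB8 and PSMB9 were called higher, with log2 differences of 1.38 and 1.17, and ISG15 itself was not called (0.07). In the I3MO libraries 10 of the 41 lay below the other models and 0 above.

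The ISRE is the DNA element through which the interferon factors STAT2 and IRF9 switch on these genes, and its core was searched as GAAA, any 2 bases and GAAA again, on either strand (TTTC, any 2 bases and TTTC on the other), in the 250 bases before the gene start in RefSeq (GRCh38.p14). It was found in 1014 of 27305 promoters (3.71%), in 21 of the 33 tested interferon genes with a promoter in the table (63.6%), and in 5 of the 8 that were distinct lower (62.5%). Over all genes the shares were 2.86% of the distinct lower and 3.42% of the distinct higher, against 3.26% of all tested genes. A match is a description of these letters and not a bound site. The 5 stretches are shown because they are those of the 5 distinct lower interferon genes with a match, from 45 bases before the match to the base before the gene start, with the match nearest to the gene start in capitals. The window of 250 bases held 2 matches for IFIT5 and 3 for IFIH1, of which the others are not marked:
IFIH1, chr2:162318685-162318750, minus strand: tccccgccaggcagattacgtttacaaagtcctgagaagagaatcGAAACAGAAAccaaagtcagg
PARP9, chr3:122564301-122564386, minus strand: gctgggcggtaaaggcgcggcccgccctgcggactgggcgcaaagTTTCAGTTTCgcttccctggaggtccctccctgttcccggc
EPSTI1, chr13:42992242-42992336, minus strand: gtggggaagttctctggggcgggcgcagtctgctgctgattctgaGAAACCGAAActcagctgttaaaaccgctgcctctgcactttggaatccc
IFIT5, chr10:89414504-89414567, plus strand: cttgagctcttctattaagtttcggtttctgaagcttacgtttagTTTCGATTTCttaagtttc
IFI44, chr1:78649726-78649788, plus strand: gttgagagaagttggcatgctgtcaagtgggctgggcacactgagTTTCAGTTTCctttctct

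IFIH1 was given above, and the other 4 genes with a printed promoter were below every other DMSO library. PARP9, a partner of the ligase DTX3L, was at 0.11 and 0.194 FPKM against 0.711 to 5.58, EPSTI1 at 0.0657 and 0.0828 against 0.108 to 4.02, IFIT5 at 0.0296 and 0.0276 against 0.0866 to 4.56, and IFI44 at 0.0075 and 0 against 0.0435 to 2.07. For EPSTI1, IFIT5 and IFI44 the nearest other library was one of ANBL6BR, and the ARP1 I3MO libraries did not lie outside the range of the others.

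Of 19 tested genes of MHC class I presentation 6 were called higher and 6 lower. HLA-C, which presents peptides to T cells, was distinct lower at 1.26 and 1.05 FPKM against 2.73 to 85. NLRC5, the activator of class I genes, was at 0.511 and 0.391 against 0.629 to 2.77. PDIA3, which loads class I molecules, was distinct higher at 63.4 and 51.3 against 6.59 to 37.9. HLA-B (log2 difference 0.06) and B2M (-0.00) were not called. HLA genes are variable between people and share sequence, so reads of one can be lost or credited to another. Of 13 MHC class II genes 3 were called higher and 5 lower, and none was distinct. HLA-DRA was at 57.8 and 51.8 FPKM in ARP1, against 54.7 to 87.6 in ANBL6, RPMI8226 and U266, and 0.0565 and 0.0285 in ANBL6BR.

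Most genes of the NF-kB list were called lower: of 29 tested, 19 were called lower and 4 higher, 10 were distinct lower and 2 distinct higher, and the median was -0.66. Beside ICAM1, the kinase MAP3K14 (NIK) that starts the alternative pathway was at 1.36 and 1.32 FPKM against 2.71 to 8.24. NFKB2 was at 10.8 and 11.2 against 12 to 39.5. BIRC3, both target and regulator, was at 0.199 and 0.48 against 0.554 to 19.5, and the B cell costimulator CD40 was listed at 0 against 0.0219 to 1.98. The lowest other value of CD40 was under the level of 3 fragments for a gene of 1 kb. CYLD, a deubiquitinase that restrains NF-kB, was also lower, at 0.264 and 0.39 against 0.883 to 2.91 (log2 difference -1.03, adjusted p = 1.69e-05). NFKB1, which encodes p50, was distinct higher at 7.31 and 5.95 against 1.93 to 4.42, and the adaptor TRAF2 at 13.7 and 14.3 against 8.21 to 11.5. PLEK, pleckstrin, was at 0.661 and 0.493 against 2.48 to 123. TRAF3, the brake on MAP3K14, was at 3.01 and 2.32 FPKM, between the low values of ANBL6 and RPMI8226 (1.12 to 1.29) and the high ones of ANBL6BR and U266 (7.82 to 8.2). Its call (-0.29, adjusted p = 0.0123) was lost without ARP1 replicate 2 (-0.16, adjusted p = 0.0656).

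In the interleukin 6 pathway the receptor, a kinase and a target were distinct lower. IL6R was at 0.43 and 0.296 FPKM in ARP1 against 3.44 to 81.2 (median 14.4), with the highest values in U266, a log2 difference of -3.79 (SE 0.23, adjusted p = 1.11e-05). SOCS3, which STAT3 induces, was at 0.443 and 0.376 against 0.963 to 83.2 (median 34.9), and the kinase TYK2 at 4.08 and 3.87 against 7.1 to 20.3. IL6 itself was at 0.00773 and 0, at most 0.0448 in ANBL6, ANBL6BR and RPMI8226, and at 1.19 and 1.25 in U266. Over the whole cytokine list of 30 tested genes, 17 were called lower and 9 higher, 7 were distinct lower and 5 distinct higher. PTPN6, the phosphatase SHP-1 that damps these receptors, was at 29 and 29.9 FPKM in ARP1 against 0.259 to 3.24 (log2 difference 3.77, adjusted p = 1.25e-06). IL2RB, the beta chain of the interleukin 2 receptor, was at 15.7 and 15.4, near it only in U266 (8.05 and 8.76) and at most 0.0598 in the other 6 libraries. SOCS2 was at 1.25 and 1.08 against at most 0.275, and STAT5B at 8.36 and 7.17 against 1.57 to 4.24. SOCS2 passed the filter through the ARP1 libraries alone and so had to lie above the others.

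Genes of homing and adhesion were called lower more often than tested genes in general. Of 33 tested, 21 were called lower (63.6% against 41.0%) and 10 higher (30.3% against 26.0%). There were 7 distinct lower (21.2% against 10.7%) and 3 distinct higher (9.09% against 12.0%), and the median was -0.66. CXCR4, the receptor that holds plasma cells in the marrow, was at 5.65 and 3.94 FPKM against 10.4 to 53 (median 24.3). The tetraspanin CD9 was at 0.0046 and 0 against 0.0787 to 43.7. The leukocyte integrin chains ITGAM and ITGB2 were at no more than 0.0107 and 0.0205 in ARP1, below every other library. ITGB1, the beta 1 integrin, was distinct higher at 6.63 and 10.2 against 0.869 to 3.08, and its partner ITGA4 was called higher (1.79). CCL5, a chemokine, was at 18.9 and 17.1 against 0.187 to 11.7, and its receptor CCR1 at 88.3 and 72 against 18.6 to 71.6, where the lower ARP1 library and the higher U266 library nearly touched.

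**Figure D3:**
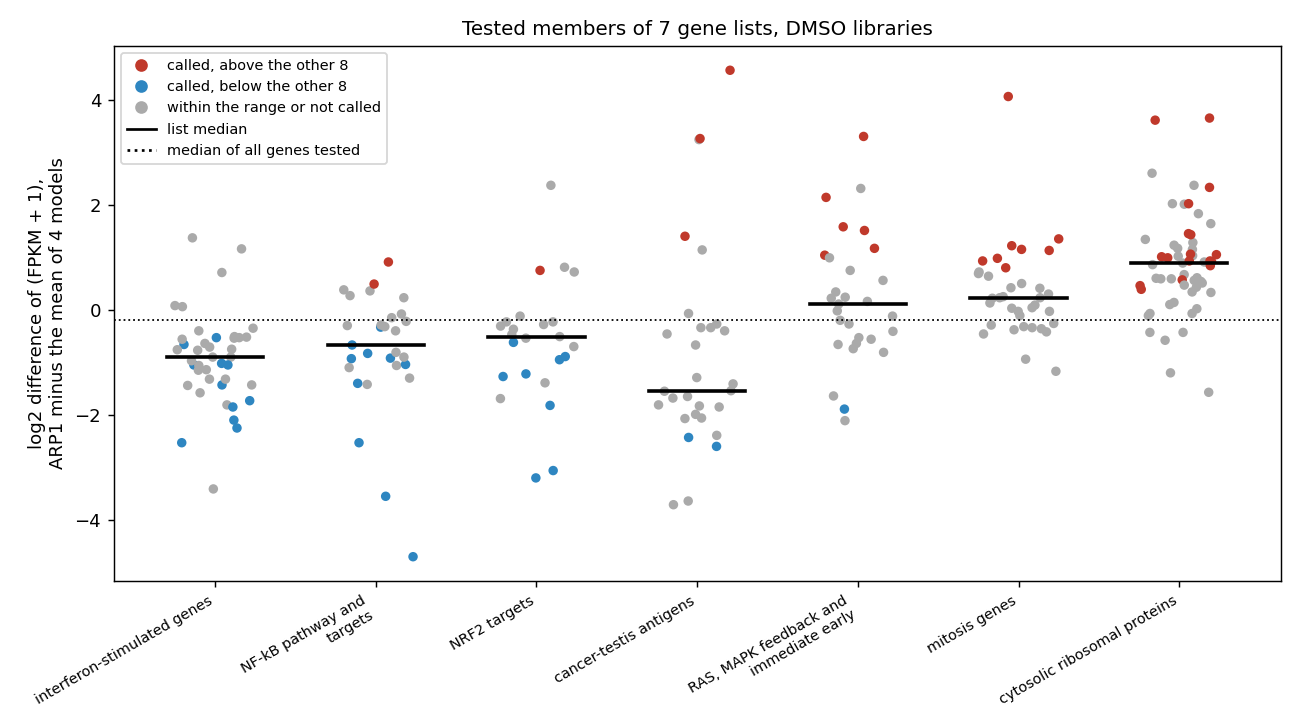
Difference in log2(FPKM + 1), ARP1 minus the mean of the 4 other models, for every tested member of 7 gene lists; red and blue points are distinct higher and lower genes, grey points the rest, bars the list medians and the dotted line the median of all tested genes (-0.18). The medians of interferon, NF-kB and NRF2 genes lie below the line at -0.89, -0.66 and -0.52, and that of ribosomal proteins above it at 0.90.

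Targets of NRF2, the factor of the antioxidant response, were called lower more often than tested genes in general. Of 24 tested, 13 were called lower (54.2% against 41.0%) and 4 higher (16.7% against 26.0%), with 8 distinct lower, 1 distinct higher and a median of -0.52. ME1, malic enzyme, was listed at 0 in both ARP1 libraries against 0.493 to 27.4, and the pentose phosphate enzyme PGD was at 25.9 to 27.3 against 36.1 to 66. GCLC, which makes glutathione, was at 1.28 and 1.37 against 2.01 to 5.87, and the cystine carrier SLC7A11 at 0.565 and 0.989 against 1.07 to 16.3. TXN, thioredoxin, was distinct higher at 231 and 224 against 109 to 174. SQSTM1, the autophagy receptor p62, was at 14 and 14.1 against 23 to 301, the highest in ANBL6BR replicate 2, and its call (-1.81, adjusted p = 0.0442) was lost in 8 of the 10 fits that left out 1 library, those without a library of any model other than ANBL6BR (adjusted p = 0.0716 to 0.17). FTL shares sequence with processed copies in the genome, so its counting is uncertain.

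Genes of glycolysis and hypoxia went both ways. Of 35 tested, 10 were called higher and 17 lower, with 7 distinct higher and 5 distinct lower. Several glycolytic enzymes were distinct higher: GAPDH was at 522 and 511 FPKM against 103 to 330, PGAM1 at 263 and 232 against 12.9 to 199, TPI1 at 181 and 204 against 34 to 165, and LDHA at 82.4 and 78.7 against 40.9 to 63.1. PFKFB3, which sets the flux, was at 3.72 and 3.32 against 0.35 to 1.17. The hypoxia genes BNIP3, VEGFA and PDK1 were distinct lower, with VEGFA at 0.993 and 0.969 against 1.46 to 6.57 and PDK1 at 0.618 and 0.95 against 1.41 to 6.37. PFKP, a phosphofructokinase and also distinct lower, was at 0 and 0.0184, low otherwise only in ANBL6BR (0.304 and 0.173) and at 14.5 to 18.9 elsewhere.

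The secretory machinery was mixed. Of 39 genes of folding and degradation in the endoplasmic reticulum 11 were called higher and 12 lower, and 6 were distinct higher and 5 distinct lower. Its median of -0.09 changed sign with median-ratio scaling (0.05). The disulfide isomerase PDIA6 was at 78.4 and 68.2 FPKM against 18.1 to 40.7, and SDF2L1, a chaperone cofactor, at 169 and 221 against 28.5 to 97. The chaperone HSPA5 was distinct lower at 207 and 175 against 227 to 404, the ubiquitin ligase SYVN1 at 4.45 and 3.81 against 8.04 to 16.4, and the stress sensor ERN1 at 7.46 and 5.62 against 9.4 to 18.4. Of 36 proteasome subunits 10 were called higher and 7 lower, with 2 distinct in each direction. PSMD2 and PSMD4 were distinct higher (log2 differences 0.55 and 0.57), but neither call held without ARP1 replicate 1 (adjusted p = 0.162 and 0.0575) or replicate 2 (adjusted p = 0.116 and 0.0757), and PSMD2 was lost in 7 of the 10 fits that left out 1 library (adjusted p = 0.061 to 0.162). PSMB5, the subunit that bortezomib binds, was not called (-0.23). Of 38 ATF4 and CHOP targets 9 were called higher and 17 lower, with 4 distinct lower, among them ATF3 at 0.531 and 0.38 against 0.902 to 5.52 and the amino acid carrier SLC38A2 at 2.74 and 4.33 against 5.63 to 34.3.

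B lineage genes were mostly called lower, with PAX5 and CD79A distinct higher. Of 16 tested, 12 were called lower and 3 higher, with 7 distinct lower and 2 distinct higher and a median of -0.64. The kinases of the B cell receptor SYK and BTK were at 0 and 0 FPKM and at 0.0738 and 0.0687 in ARP1 against 0.0861 to 7.57 and 0.366 to 5.72, and their adaptor BLNK at 0.0417 and 0.0111 against 0.0946 to 4.88. For SYK and BLNK the lowest other value was itself under the level of 3 fragments for a gene of 1 kb. That level is lower for longer genes, but the gap to ARP1 is limited by depth. BCL6, the factor of germinal centre B cells, was at 0.0455 and 0.0226 against 0.244 to 1.13. PAX5, the factor of B cell identity that plasma cells lose, was at 1.43 and 1.25 in ARP1 against at most 0.0453 (log2 difference 1.20, adjusted p = 1.07e-06), and CD79A at 3.87 and 5.07 against 0.158 to 1.45. PAX5 passed the filter through the ARP1 libraries alone.

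Of the 10 tested plasma cell factors 5 were called higher and 4 lower, and POU2AF1, the B cell coactivator, was the 1 that was distinct, at 7.95 and 6.94 FPKM against 10.4 to 124. PRDM1 was called higher at 15.6 and 12.4 against 1.95 to 25.1. IRF4 was called higher (log2 difference 1.10, adjusted p = 0.0217), but not without ARP1 replicate 1 (adjusted p = 0.152), ARP1 replicate 2 (0.0653), U266 replicate 1 (0.053) or U266 replicate 2 (0.0501).

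Immunoglobulin constant genes, whose sequences are close to each other, were mostly called lower, 8 of 12 tested against 4 higher. IGLC2, a lambda light chain, was at 7.74 and 3.61 FPKM in ARP1 and 2.99 and 1.96 in ANBL6BR, against 3681 and 3184 in ANBL6, 11266 and 8452 in RPMI8226 and 12425 and 13137 in U266. IGLC3 was at 0.129 and 0.481 in ARP1 and 8.28 to 1653 in the others. IGKC, the kappa light chain, was at 18.2 and 16.5 in ARP1 against 0 to 12.3, with ANBL6 next at 12.3 and 11.9. In I3MO this order was turned, with IGKC at 4.01 and 4.1 in ARP1 and at 9.77 and 12.9 in ANBL6. IGHG1 was at 3.86 and 3.34 in ARP1 against at most 0.0836, and it passed the filter through the ARP1 libraries alone. The list, which also holds the joining chain gene JCHAIN, summed to 193 to 277 FPKM in ARP1 against 279 to 14025, most of it JCHAIN (150 and 232). The JCHAIN call (1.27, adjusted p = 0.0165) was lost without ARP1 replicate 2 (adjusted p = 0.146).

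Targets of myeloma therapy did not move together: of 30 surface antigens and drug targets 11 were called higher and 13 lower, with 3 distinct higher and 8 distinct lower. GPRC5D, a receptor targeted by antibodies and CAR T cells, was at 58.3 and 50.1 FPKM in ARP1. Among the others only ANBL6BR came near, with 33.5 and 3.56, and the remaining 6 libraries were at 0.029 to 0.87 (log2 difference 4.50, SE 0.63, adjusted p = 0.000646). SDC1 was called higher (0.97, adjusted p = 0.00937), but not without ARP1 replicate 1 (adjusted p = 0.0603) or replicate 2 (0.0615). TNFRSF17 (0.67, adjusted p = 0.166) was not called, and it passed without ANBL6BR replicate 1 (0.90, adjusted p = 0.000561) or replicate 2 (0.45, adjusted p = 0.0101). CD38, at 7.58 and 6.87 FPKM in a range of 1.5 to 30.3, was not called (-0.15), and it passed as lower without ANBL6BR replicate 2 (-0.30, adjusted p = 0.0115). SLAMF7 was low in ARP1 (1.05 and 1.11) and lower still in all models but U266 (4.6 and 4.5).

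CD70, the ligand of CD27, was distinct lower at 0.0505 and 0.188 FPKM against 0.761 to 197, and IGF1R, the receptor of insulin-like growth factor 1, at 0.487 and 0.357 against 1.63 to 2.37. CD28 was at 9.27 and 9.84 against 10 to 62.1, just below RPMI8226, and its call (-0.98, adjusted p = 0.00605) was lost without ARP1 replicate 1 (adjusted p = 0.0521). CD274, which encodes PD-L1, was at 0 and 0.00636 against 0.198 to 1.4. CRBN, the target of lenalidomide, was called lower (-0.29, adjusted p = 0.0081) at 0.429 and 0.68 against 0.558 to 1.33, inside the range, and the call was lost without the model ANBL6 (-0.20, adjusted p = 0.0653).

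Cancer-testis antigens, genes of the germ line that tumours switch on, were called lower in 23 of 29 tested and higher in 5, with a median of -1.53. Only 2 were distinct lower and 3 distinct higher. MAGEC1 was listed at 0 in both ARP1 libraries against 0.0474 to 39.3, and SSX1 likewise against 0.196 to 140. PAGE5 was at 65.2 and 75.4 FPKM in ARP1 and 63.3 and 61.6 in U266, and MAGEB1 at 18.9 and 17.6 in ARP1 and 15.3 and 13.7 in U266, with at most 0.239 and 0.0245 in the other 6 libraries. MAGEA3 lay inside the range, at 37.9 and 37.7 in ARP1, 83.3 and 78 in U266 and at most 2.57 elsewhere. PRAME was at 1.98 and 1.87 against at most 0.488, but it passed the filter through the ARP1 libraries alone and so had to lie above the others. Members of these families are near copies of each other, so reads may be lost or credited to a relative.

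Among the genes that myeloma translocations switch on, CCND3 was the D-type cyclin that was distinct higher, at 9.56 and 9.34 FPKM against 1.1 to 2.93 (log2 difference 1.77, adjusted p = 1.8e-06). CCND2 was at 53.8 and 48.5 against 26.5 to 154 and was not called (0.25), but it passed as higher without ANBL6BR replicate 1 (0.37, adjusted p = 0.00154). CCND1 was at 2.84 and 2.09, below ANBL6, RPMI8226 and U266 (11.8 to 137) and above ANBL6BR (0.0096 and 0.0476). MAF was at 26.6 and 23.3, below the 6 libraries of ANBL6, ANBL6BR and RPMI8226 (71.5 to 144) and above U266 (5.74 and 5.04). NSD2 was distinct higher at 4.33 and 3.31 against 1.95 to 2.41, and its neighbours on chromosome 4 LETM1 (26.7 and 23.7 against 8.79 to 14) and TACC3 (16.9 and 17 against 6.04 to 11.8) likewise. FGFR3 was under the filter, at 0.0913 and 0.118. MYC was at 40.4 and 33.1, between 94.8 to 111 in ANBL6 and RPMI8226 and 0.651 to 10.9 in ANBL6BR and U266. Its call as higher (adjusted p = 0.0495) was lost in the 8 fits without 1 library of a model other than ANBL6BR (adjusted p = 0.0776 to 0.233). MYCL was low, at 0.179 and 0.25, and very high only in U266 (77.1 and 73.4). DEPTOR, an inhibitor of mTOR, was at 5 and 5.39 against 7.78 to 38.2. Over the list of 29 tested, 13 were called in each direction, 6 distinct higher and 7 distinct lower.

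Of 26 genes of the cell cycle brakes and cyclins 10 were called higher and 8 lower. CDKN2A, which encodes p16 and ARF, was distinct higher at 38.7 and 47.6 FPKM against 9.46 to 27.6 (log2 difference 1.60, adjusted p = 0.000213), and CDKN1B, p27, at 28 and 24.4 against 9.99 to 21.5. CDKN2C, p18, was listed at 0 in ARP1 as in RPMI8226, at 0.0111 in ANBL6 and at 31.4 to 50.1 in ANBL6BR and U266. RB1 was at 3.01 and 4.77, and its call (0.42, adjusted p = 0.0201) was lost without ARP1 replicate 2 (0.16, adjusted p = 0.102).

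The BCL2 family, which sets the threshold for cell death, had members distinct in both directions. Of 15 tested, 6 were called higher and 7 lower, with 3 distinct in each direction. The death genes BID, BAK1 and BMF were distinct higher: BID was at 9.75 and 11.1 FPKM against 1.02 to 3.18, BAK1 at 28.7 and 29.6 against 8.07 to 15.6, and BMF at 8.67 and 7.1 against 1.26 to 5.97. BCL2L1, which encodes the survival protein BCL-XL, was at 1.57 and 1.25 against 3.04 to 30.9 (log2 difference -2.35, adjusted p = 5.84e-05). The death genes PMAIP1 and BCL2L11 were also distinct lower, at 5 and 7.03 against 7.9 to 29.8 and 0.637 and 0.471 against 0.765 to 2.18. MCL1, on which myeloma cells depend, was called higher at 79.4 and 75.3 inside a range of 16.7 to 83.3 (0.87, adjusted p = 0.000214). BCL2 was at 3.64 and 3.86 against 3.78 to 13.2, and its call (-0.72, adjusted p = 0.0236) was lost without either ARP1 library (adjusted p = 0.125 and 0.0964) or either U266 library (0.0535 and 0.0555).

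Of 29 feedback and early genes of the RAS and MAPK pathway 10 were called higher and 9 lower, and the distinct ones were mostly higher. DUSP6, a phosphatase that ERK induces against itself, was at 6.24 and 5.06 FPKM against 0.479 to 1.82 (log2 difference 1.59, adjusted p = 3.38e-06). The inhibitors SPRY1 and SPRY4 were at 3.6 and 2.64 against at most 1.11 and at 7.04 and 5.77 against at most 3.41. The factors ETV5 (10.8 and 8.07 against 1.58 to 5.96) and ETV4 (7.97 and 8.25 against 0.764 to 6.67) and the phosphatase DUSP5 (237 and 183 against 2.85 to 149) made up the 6 distinct higher members. JUN was the 1 distinct lower member at 2.29 and 2.19 against 3.36 to 46.4. The list median of 0.12 was -0.02 without ANBL6BR replicate 2, and -0.05, -0.05 and -0.14 without the models ANBL6, RPMI8226 and U266.

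Mitosis genes were called higher more often than lower: of 36 tested, 17 were called higher and 7 lower, 8 were distinct higher and 0 distinct lower, and the median was 0.24. PLK1, a kinase of mitotic entry, was at 36.9 and 35.2 FPKM against 4.97 to 24.9, AURKA at 6.71 and 7.09 against 1.74 to 3.19, CDC20 at 78.5 and 79.2 against 10.3 to 52.8, and CCNB1 at 50.5 and 56.8 against 7.78 to 36.5. U266 was lowest in each of the 4, and the list median was -0.03 without the model U266 and 0.09 without ARP1 replicate 2. UBE2C, the partner of CDC20 in the anaphase complex, was at 40.9 and 44.1 in ARP1 and 20.7 and 13.1 in ANBL6BR but at 0.0884 to 0.927 in the other 6 libraries, where PLK1, AURKA, CDC20 and CCNB1 were all read. MKI67, the marker of cycling cells, was not called (0.26). Of 40 replication genes 12 were called higher and 15 lower, with 7 and 4 distinct. GINS1 was at 38.1 and 31.9 against 9.66 to 18.2, ORC6 at 9.71 and 8.51 against 3.32 to 6.31, and CHAF1A at 18.1 and 16.6 against 23.2 to 42.1. The replication median of -0.11 was 0.02 with median-ratio scaling and 0.07 without the model ANBL6BR.

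Ribosomal protein genes had the highest median of the 31 lists. Of 57 tested, 45 were called higher and 5 lower, 17 were distinct higher and 0 distinct lower, and the median was 0.90. RPL32 was at 350 and 408 FPKM against 29.7 to 143 (log2 difference 2.34, adjusted p = 8.95e-07), and RPS24 at 92.4 and 101 against 32.5 to 70. RPL7 was at 133 and 189 in ARP1, at 91.5 to 111 in RPMI8226 and U266, and at 0.271 to 0.692 in ANBL6 and ANBL6BR. The sum over the list was 11421 to 12700 FPKM in ARP1 against 3447 to 13389. In I3MO only 4 of the 57 lay above the other models. These genes have many processed copies in the genome, which share their reads.

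HOX genes stood out along chromosome 17, where 6 neighbouring genes of the HOXB cluster were distinct higher. HOXB6, HOXB8 and HOXB13 passed the filter through the ARP1 libraries alone and so had to lie above the others, which leaves HOXB4, HOXB7 and HOXB9. These and the next genes were named after their values were seen. The HOX genes give cells their position along the body axis and are active in blood progenitors. HOXB9 (chr17:48621159-48626356) was at 44.9 and 37.1 FPKM in ARP1, 6.11 and 6.85 in ANBL6, 3.22 and 3.09 in RPMI8226, 0.282 and 0.452 in U266 and 0 in ANBL6BR (log2 difference 4.03, SE 0.09, adjusted p = 1.39e-07). HOXB7 was at 16.7 and 13.8 against 0.8 to 10.7, HOXB4 at 6.72 and 6.96 against 0.0184 to 4.36, HOXB8 at 2.7 and 1.61 against at most 0.767, HOXB13 at 1.77 and 1.22 against at most 0.34 and HOXB6 at 1.14 and 1.02 against at most 0.621. ANBL6 was the next highest model for 5 of these 6, and ANBL6BR was the lowest or among the lowest for all but HOXB7. In I3MO both ARP1 libraries again lay above the other 8 for HOXB4, HOXB8, HOXB9 and HOXB13, but not for HOXB6 and HOXB7. HOXB7 was there at 11.8 and 13.7 in ARP1 and at 10.5 and 12.2 in ANBL6.

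Between HOXB9 and HOXB13 the non-coding genes HOXB-AS4 (5.44 and 6.14 FPKM) and LINC03057 (8.19 and 8.91) were nearly or wholly unread in the other models and so were also tested through ARP1 alone, and PRAC1 and PRAC2 were listed at 0 in every library. The MIR196A1 hairpin gene in the same interval (chr17:48632490-48632559, minus strand) was at 15.5 and 20.1 FPKM in ARP1 and listed at 0 in the other 8 libraries. It too was tested through ARP1 alone. The gene has only 70 bases, so a listed 0 allows a higher level than for a gene of 1 kb, and few fragments lie behind its values. These are fragments of long RNA over the hairpin, and mature microRNA was not measured. Its product is a known regulator of HOX messages, and its mature sequence is shown, from RefSeq (GRCh38.p14), with the seed (bases 2 to 8) in capitals:
hsa-miR-196a-5p: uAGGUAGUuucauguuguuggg

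Outside the cluster HOXC4, which also passed the filter through ARP1 alone, was at 1.71 and 1.5 FPKM against at most 0.74.

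**Figure D4:**
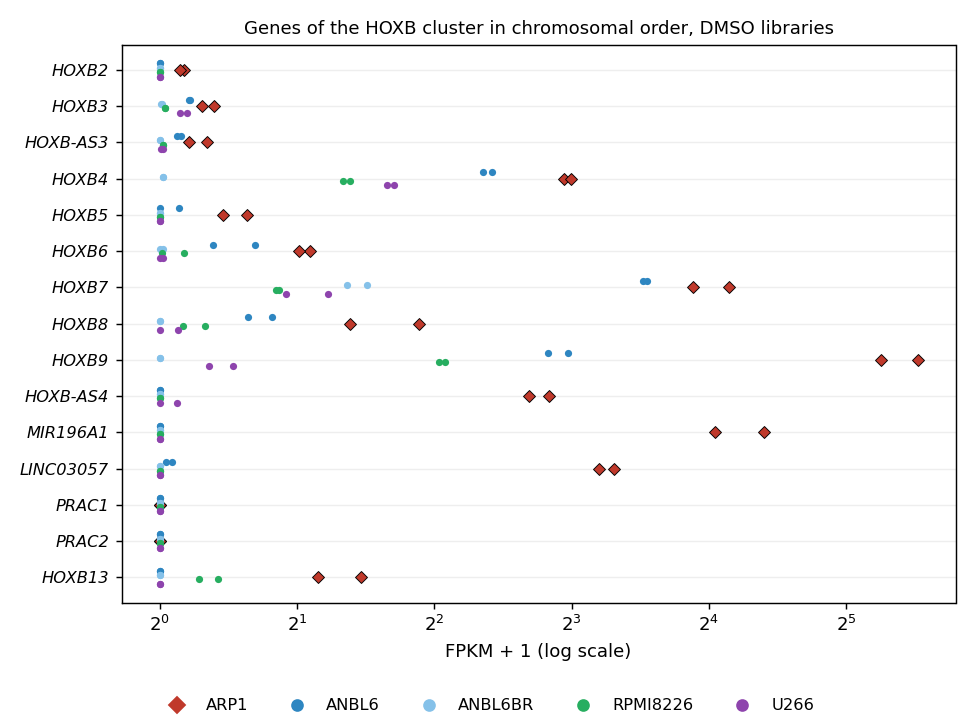
FPKM + 1 on a log axis for the genes of the HOXB cluster and its non-coding neighbours in chromosomal order, DMSO libraries; diamonds are ARP1 and dots the other models. The ARP1 diamonds lie to the right of all dots from HOXB2 to HOXB13 except at PRAC1 and PRAC2, which lie at FPKM 0 in all. The gap is widest for MIR196A1 (15.5 and 20.1 FPKM), a gene of only 70 bases, and, among the protein-coding genes, for HOXB9 (44.9 and 37.1 FPKM).

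Runs of neighbouring distinct genes were found elsewhere too. Chromosome 22 had the highest share of distinct higher protein-coding genes, 81 of 261 (31.0%), against 13.1% over all chromosomes, and a median of 0.21 against -0.14. In I3MO its median was 0.09 against 0.04. A run of 8 neighbouring tested genes from THAP7 to PPM1F (chr22:20999104-21952837) was distinct higher throughout, with a median of 1.41. It held UBE2L3, a ubiquitin-conjugating enzyme, at 25.8 and 27.6 FPKM against 2.65 to 11.3. Of the 195 windows of 10 Mb with at least 20 tested genes, the highest median was 1.02 at 10 to 20 Mb of chromosome 2, with 10 of 23 genes distinct higher and 0 distinct lower, and the same median in I3MO. Next to it a run of 6 genes around YWHAQ and ADAM17 was distinct higher with a median of 1.79, with YWHAQ, a 14-3-3 protein, at 366 and 375 FPKM against 51 to 104. The window that holds this run, 0 to 10 Mb of chromosome 2, had a median of -0.43, and -0.29 in I3MO. Of its 22 genes 8 were distinct higher and 5 distinct lower.

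Low stretches were found on chromosomes 3, 6, 8, 15, 18 and 19, among others. The lowest window median was -0.87, at 150 to 160 Mb of chromosome 3, where 9 of 20 genes were distinct lower, but in I3MO it was -0.27. At 10 to 20 Mb of chromosome 6 it was -0.70, with 12 of 27 genes distinct lower, and -0.64 in I3MO. The window at 0 to 10 Mb of chromosome 6 had a median of -0.77, and -0.78 in I3MO. At 140 to 150 Mb of chromosome 8 the median was -0.65, with 22 of 55 genes distinct lower, and -0.76 in I3MO. At 90 to 100 Mb of chromosome 15 it was -0.42, with 13 of 27 distinct lower (48.1%), and -0.58 in I3MO. Chromosome 18 had the lowest median of a chromosome, -0.48, with 31 of 136 genes distinct lower (22.8%) against 11.7% over all, but in I3MO its median was -0.16, above that of chromosome 19 (-0.30). A run of 7 distinct lower neighbours (chr19:51225064-52030240) had a median of -1.17 and included CD33 (0.0303 and 0.0564 FPKM against 0.318 to 3.36), ETFB and the zinc finger genes ZNF175, ZNF350 and ZNF614. Gene copy number was not measured in these data.

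**Figure D5:**
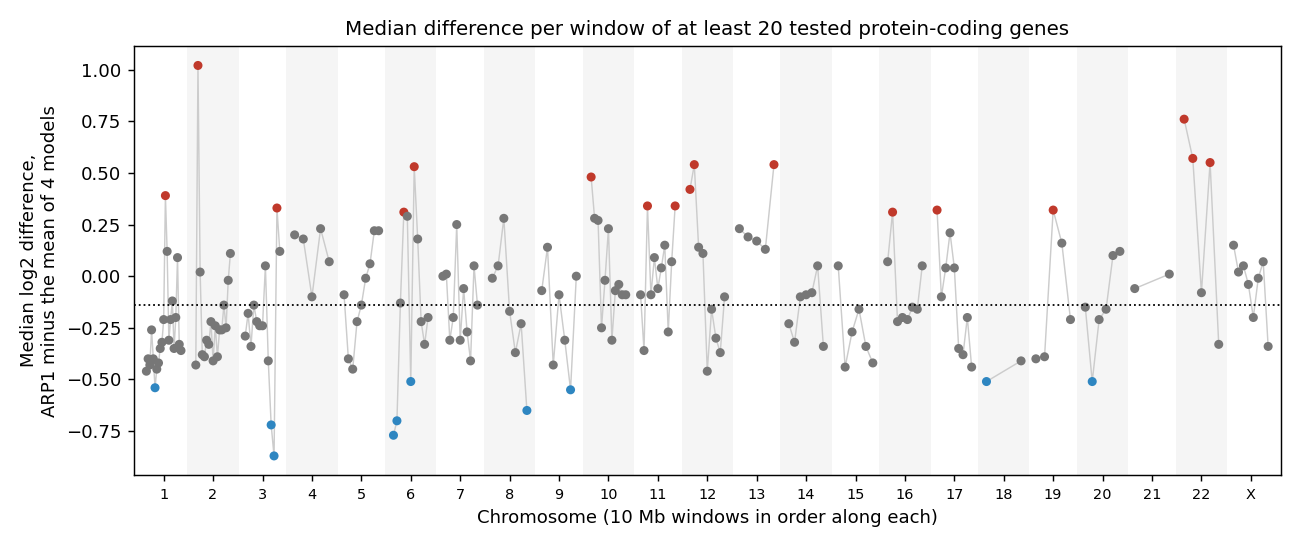
Median difference in log2(FPKM + 1), ARP1 minus the mean of the 4 other models, for 195 windows of 10 Mb with at least 20 tested protein-coding genes, in order along each chromosome; red marks medians above 0.3, blue below -0.5 and the dotted line the median of all such genes (-0.14). The highest window is 10 to 20 Mb of chromosome 2 (1.02) and the lowest 150 to 160 Mb of chromosome 3 (-0.87).

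In the remaining lists single members stood out. Of 22 WNT and NOTCH genes 7 were called higher and 10 lower. The WNT factor LEF1 was distinct higher at 3.1 and 2.56 FPKM against at most 1.24 and CTNNB1, beta-catenin, at 9.9 and 10.1 against 3.89 to 8.58, while HES1, a NOTCH target, was distinct lower at 0.0691 and 0 against 0.456 to 4.25. Of 22 chromatin genes 11 were called higher and 4 lower, with a median of 0.28. The DNA methyltransferase DNMT3B was at 2.53 and 2.02 against 0.114 to 0.77 and the maintenance enzyme DNMT1 at 10.4 and 9.07 against 12.1 to 17.8. DNMT3B passed the filter through the ARP1 libraries alone and so had to lie above the others. Of 16 genes of drug handling 6 were called in each direction, and GSTP1, a glutathione transferase, was at 0 and 0.0301 FPKM in ARP1, 0.107 and 0.0574 in RPMI8226 and 24.2 to 107 in the other 6 libraries. Of 10 genes around the aryl hydrocarbon receptor, which I3MO binds, 3 were called higher and 5 lower. Its partner ARNT was distinct higher at 7.97 and 6.33 against 2.16 to 4.07, AHR itself was under the filter at 0.367 and 0.7, and CYP1A1 was at 0.327 and 0.29 in a range of 0.00751 to 2.01.

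Of 32 genes of sterol and fatty acid synthesis 7 were called higher and 10 lower, with 2 distinct each way, FDFT1 and ACACA higher and FADS2 and FDPS lower. Of 43 nuclear genes of the respiratory chain 13 were called higher and 14 lower, again with 2 distinct each way: UQCRFS1 was at 55.5 and 50.3 FPKM against 12.3 to 41.1, and COX7A2 at 19.5 and 22.2 against 33.7 to 62.1. The tumour suppressor list of 27 had 7 called higher and 11 lower, and its members BIRC3, CYLD, CDKN2A and TRAF2 were distinct, as given above.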

How the data were processed

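RNA-seq values of 20 libraries (5 models, DMSO or I3MO, 2 each) were deposited as FPKM for 60483 genes; the joint table and the 20 single tables held the same values. Per the submitters' processing notes, the authors used Trimmomatic (0.32 and 0.36 are named), STAR, SAMtools and hg38; the sources used here give neither the counting tool nor the annotation. Names and positions were taken from GENCODE 29 (56753 identifiers matched, 37168 with the same version).

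Fragment totals were recovered from FPKM steps of single-exon genes, where 98.1% to 99.4% of values per library were whole to within 0.05. Genes with at least 1 FPKM in at least 2 of the 10 DMSO libraries were tested by limma 3.58.1 (R 4.3.3) on log2(FPKM + 1) with an intensity trend, two-sided, adjusted by Benjamini-Hochberg over 13929 genes; the pseudocount understates changes of low genes. Errors are limma's SE. The fit was checked on simulated data in which the other models did not differ from each other. That check therefore says nothing of the spread between models.

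The comparison, the 31 gene lists and the 7 marker lists were chosen with earlier results of these data known. Genes were named by rule: the 15 widest gaps each way among distinct protein-coding and lincRNA genes outside the immunoglobulin genes, up to 4 distinct members of each list by the same gap, and 38 fixed genes; other members, the on and off genes, HOX, immunoglobulin and neighbouring genes were chosen after their values were seen. Alternatives were another pseudocount, filter, scaling, unit, block, all 20 libraries, and leaving out each library or model. Some genes and 1 of the gene lists are not reported here.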

Additional observations from a re-analysis of the deposited data

How the results depend on the processing

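The count of genes called against the mean of the 4 models (9334) was 7828 to 9909 when 1 library was left out. It was 9168 with 0.1 added before the log, 12142 of 36275 without a filter, 9175 with median-ratio scaling (45.6% of calls higher against 38.8%), 9547 with all 20 libraries in the fit, 9018 with ANBL6 and ANBL6BR as 1 line, and 8416, 9542, 9496 and 8554 without the models ANBL6, ANBL6BR, RPMI8226 and U266. With a filter of 5 FPKM, which leaves 6324 genes to test, 4532 were called, 1618 lay outside the range and 1612 were distinct, and 4523, 4522, 3996 and 4249 were called against ANBL6, ANBL6BR, RPMI8226 and U266. With the model as the unit limma called 0 genes, so 0 were distinct, and 604 had an unadjusted p under 0.05.

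Leaving out 1 library gave 3189 to 3837 distinct genes, 3237 to 4142 outside the range, and 7393 to 9481, 8027 to 8811, 6132 to 8252 and 7073 to 9126 called against ANBL6, ANBL6BR, RPMI8226 and U266. Replicate numbers did not pair the libraries: deviations of same-numbered libraries correlated at 0.113 between ANBL6 and ANBL6BR and at -0.0978 to 0.0539 in the other pairs. With the replicate number as a block 9265 genes were called and 3152 were distinct. Without the models ANBL6, ANBL6BR, RPMI8226 and U266 3600, 4319, 4599 and 4202 genes were distinct.

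Of 152 named genes that were tested, 4 changed direction without a model: CD38 was 0.40 without ANBL6 and 0.22 without RPMI8226, TRAF3 was 0.05 without ANBL6BR and 0.05 without U266, MYC was -0.15 and RB1 -0.02 without U266; the cause was not tested. Calls were lost without ANBL6 for PSMD2, PSMD4, IRF4, SDC1, SLAMF7, CRBN and CYP1A1 (adjusted p = 0.0653 to 0.312), without RPMI8226 for SQSTM1, IRF4, SLAMF7 and RB1 (0.0543 to 0.211), and without U266 for SQSTM1, ITGB7, IRF4, CD28, BCL2, IL6 and JCHAIN (0.0569 to 0.852). With the model as the unit 149 of the 152 lost their call. The I3MO share of distinct genes was 62.1% and 63.4% with the filter of 5 FPKM. Of the 31 list medians 15 changed sign under at least 1 alternative, and 16 kept it under all that were run. Levels near the value of 3 fragments are limited by depth.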
